A study of Homo sapiens with 6 samples.

Results

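The genes examined are the core of the G1 cell cycle engine: the D cyclins (CCND1 and CCND3), the kinases they activate or that act next to them (CDK4, CDK6 and CDK2), the CIP/KIP inhibitors CDKN1B and CDKN1C, and RB1. They were chosen by symbol from a list of 10, which holds D cyclins, G1 CDKs, CDK inhibitors and RB1. Of the 17860 genes in the expression table, 8 carried one of these symbols. The expression of CCND2 and CDKN2B was not analysed here, since no row of the table used carried their symbols. The series holds 6 libraries of HCC1806/HM3, a derivative of the human triple-negative breast cancer line HCC1806 that was selected in nude mice for growth in the liver. Cells of 3 samples carried a lentiviral control shRNA (shNC) and cells of 3 samples a lentiviral shRNA against MSLN (shMSLN), both under G418 selection, on a background that by the methods also received a retroviral luciferase reporter, and the question was how loss of mesothelin alters the transcriptome. The knockdown cells are stable transductants that are not described as clones, the series holds no rescue samples, and the sources used here do not name which of the target sequences it carried. Nothing states that replicates came from separate cultures, so p-values measure only the spread between these samples, which may be technical.

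Growth signals raise the D cyclins, which bind CDK4 or CDK6 and start the phosphorylation of RB1. Phosphorylated RB1 releases the E2F factors, which switch on genes for DNA synthesis and the E and A cyclins that drive CDK2. Inhibitors of the INK4 family block CDK4 and CDK6, whereas CIP/KIP inhibitors bind several cyclin-CDK complexes and restrain CDK2. In breast cancer CCND1 is a frequently amplified gene, and drugs against CDK4 and CDK6 are in clinical use. These are background facts, and RNA levels carry no measure of phosphorylation or of complex formation.

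Each library held between 17507837 and 18512135 estimated counts. MSLN, the targeted gene, was at 36.2 ± 0.895 CPM in shMSLN and 228 ± 2.43 CPM in shNC cells (SD, n = 3 each; CPM are counts scaled to the TMM-adjusted library size). The 7 basal and squamous epithelial markers, among them KRT5 and TP63, were all above 1 TPM (transcript abundance scaled for gene length), with a sum of 2892 to 3165 TPM in shNC and 2461 to 2520 TPM in shMSLN cells. Of 3 luminal receptor genes, 2 were above 1 TPM, with a sum of 7.98 to 8.75 TPM in shNC and 10.8 to 11.4 TPM in shMSLN cells. PGR reached at most 0.01 TPM and had no value in shMSLN replicate 1, while ESR1 was at 6.32 to 6.99 TPM in shNC and 9.20 to 9.50 TPM in shMSLN cells. Summed endothelial markers were at most 2.86 TPM and hepatocyte markers at most 0.15 TPM, while the fibroblast sum of 12.9 to 14.2 TPM was mostly COL1A1 and the leukocyte sum of 32.7 to 38.3 TPM mostly CD68. The basal sum was mostly KRT5, at 2103 to 2346 TPM in shNC and 1741 to 1781 TPM in shMSLN cells. KRT5, KRT6A, TP63 and SFN were lower in every shMSLN sample than in every shNC sample. KRT17 and DSG3 were higher without overlap, and the KRT14 values overlapped, so the basal markers did not move together. The basal marker sum and ESR1 moved with the knockdown, and their part in the results was not tested. Among genes above 100 reads, 47.67% and 47.75% had whole-number counts in shMSLN replicates 2 and 3, against 3.36% to 7.02% in the other 4 libraries, so those 2 libraries stand apart in how their counts were written.

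CCND1 was the most abundant transcript of the group and the one called lower. It fell to 76.4% of its control level in shMSLN cells, CDK6 rose to 115% of its control level, and the 6 other members did not pass the test. Members were called at an adjusted p below 0.05 in edgeR's quasi-likelihood test, with Benjamini-Hochberg adjustment over all 14552 genes tested. All 8 members passed the filter on low counts. The call was made for 34.6% of all tested genes, 16.6% higher and 18.0% lower in shMSLN cells. With 2 of 8 members called (25.0%), the share was not above this background. In CPM the 2 groups of samples did not overlap for 2 of the 8 members, CCND1 and CDK6, against 46.2% of all tested genes (22.7% higher and 23.5% lower). The members' median log2 fold change was -0.0013, beside 0.0019 over all tested genes.

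**Figure D1:**
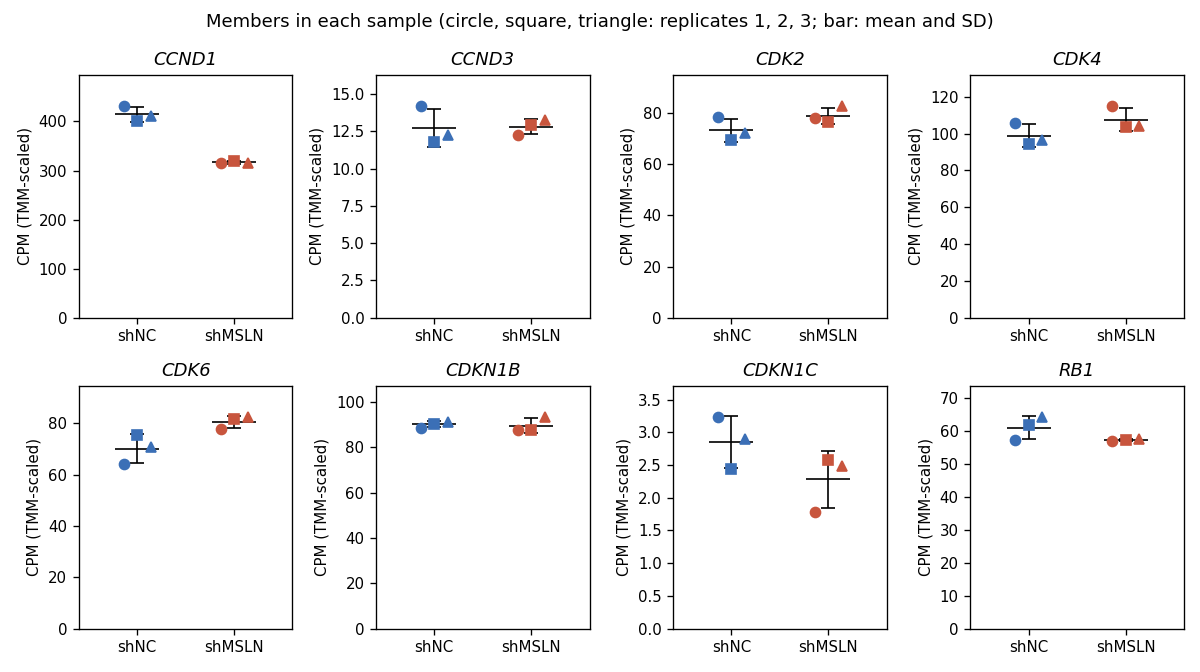
TMM-scaled CPM (vertical axes, starting at 0) of the 8 members in each of the 3 shNC and 3 shMSLN samples. Circles, squares and triangles are replicates 1, 2 and 3, and the bars give the mean and SD. The 3 shMSLN values of CCND1, 315 to 319 CPM, lie below all shNC values, and the 3 shMSLN values of CDK6 lie above all shNC values.

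CCND1 (NCBI Gene 595), the cyclin that couples growth factor signaling to CDK4 and CDK6, spans 69641087 to 69654474 on the forward strand of chromosome 11 (GRCh38, GENCODE release 29). It was at 431, 401 and 411 CPM in shNC replicates 1, 2 and 3. In shMSLN replicates 1, 2 and 3 it was at 316, 319 and 315 CPM. The shMSLN samples lay close together and below every shNC sample. Mean levels were 414 ± 14.9 CPM in shNC and 316 ± 2.58 CPM after the knockdown (SD, n = 3 each), so that 76.4% of the control level was left. Its log2 fold change was -0.39 (standard error, SE, 0.036, edgeR adjusted p = 1.38e-06), and the 95% interval of the fold ran from 0.724 to 0.806. An exact two-sided permutation test of the CPM gave p = 0.1, the smallest that 3 against 3 samples allow. With each sample left out in turn the log2 fold change was between -0.41 and -0.36 and was called each time. In shMSLN replicate 1 alone against the shNC samples it was -0.39 (adjusted p = 0.00242 by edgeR, where the spread comes from the 3 shNC samples only and the lone sample is assumed to vary like them). In bulk RNA, fewer cells that express a gene and less RNA per cell cannot be told apart. LTO1, on the opposite strand, shares 497 exon bases with CCND1 (10.3% of the annotated exon bases of CCND1), and the sources used here do not state whether strand was used in counting. LTO1 was at 23.1 CPM in shNC and 20.7 CPM in shMSLN cells (log2 fold change -0.16, adjusted p = 0.106 by edgeR).

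CCND3 (NCBI Gene 896), the D cyclin best known from lymphoid and muscle cells, did not follow CCND1. It was at 14.2, 11.8 and 12.2 CPM in shNC replicates 1, 2 and 3 and at 12.3, 13.0 and 13.3 CPM in shMSLN replicates 1, 2 and 3. The groups overlapped. Its log2 fold change of 0.0087 had a 95% interval from -0.18 to 0.20 (adjusted p = 0.951 by edgeR), so that a change as large as that of CCND1 lay outside the interval. The sign of this small value changed with the sample left out, between -0.043 without shNC replicate 2 and 0.092 without shNC replicate 1.

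Per unit of transcript length, CCND1 was by far the larger of the 2 D cyclins measured, and CCND2 is not part of this sum. In the authors' TPM, CCND1 made up 93.6% ± 0.246 of the summed CCND1 and CCND3 level in shNC and 91.5% ± 0.373 in shMSLN cells (SD, n = 3 each). The sum was 233, 225 and 224 TPM in shNC replicates 1, 2 and 3. It was 179, 184 and 182 TPM in shMSLN replicates 1, 2 and 3, which is 0.800 times the shNC mean. The summed level was lower in every shMSLN sample than in every shNC sample. These sums are a description, without a test.

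CDK6 (NCBI Gene 1021) and CDK4 (NCBI Gene 1019) are the partner kinases of the D cyclins. CDK6 lies on the reverse strand of chromosome 7 from 92604921 to 92836594 and CDK4 on the reverse strand of chromosome 12 from 57747727 to 57756013. The 250 bases before the first of 2 CDK6 starts in the RefSeq promoter table are shown because CDK6 is the called member with an entry there. The stretch is chr7:92836574-92836823 on the reverse strand (RefSeq, GRCh38.p14), runs 5′ to 3′ in the direction of the gene and is 80.0% G or C. Its last 21 bases lie in the first exon that GENCODE gives to CDK6. Capitals mark GC boxes (GGGCGG or, on the other strand, CCGCCC).
CDK6: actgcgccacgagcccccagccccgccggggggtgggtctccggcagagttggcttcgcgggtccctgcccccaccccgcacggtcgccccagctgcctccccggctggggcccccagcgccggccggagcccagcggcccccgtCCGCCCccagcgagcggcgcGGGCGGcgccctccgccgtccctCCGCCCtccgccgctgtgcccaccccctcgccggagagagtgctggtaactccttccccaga
The table held 9 starts for 6 of the 10 listed symbols, and none for CCND1, CCND2, CDK2 and CDKN1C. The only RB1 start lay 172724 bases from the GENCODE start of RB1. Starts 2 and 3 of CCND3 lay 108549 and 111152 bases from the GENCODE start of CCND3. Windows at those starts are therefore far from the annotated beginnings of these genes. The CDK6 stretch holds 3 GC boxes, and the window of CDK4 held 3 GC boxes and 3 E-boxes (CACGTG). Of the 250 bases of that CDK4 window, 211 lie in exons that GENCODE gives to CDK4 itself. GC boxes were found in 42.6% and E-boxes in 6.34% of all 35116 promoters of the same length, and 6 of the 9 member windows held a GC box. The letters GGCGGGAA, a common form of the E2F site, were in 0 of the 9 member windows on either strand and in 2.72% of all promoters, which says only that these letters are not in these windows. These matches describe letters in a window and were not tested against expression.

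CDK6 was at 64.1, 75.4 and 70.7 CPM in shNC replicates 1, 2 and 3. In shMSLN replicates 1, 2 and 3 it was at 77.7, 81.6 and 82.3 CPM. Every shMSLN sample was above every shNC sample, although shMSLN replicate 1 and shNC replicate 2 were close. In log2 the fold change was 0.20 (SE 0.056, edgeR adjusted p = 0.0119, exact two-sided permutation p = 0.1), with a 95% interval of the fold from 1.06 to 1.25. The call was lost narrowly without shMSLN replicate 2 (adjusted p = 0.0503) and without shMSLN replicate 3 (adjusted p = 0.0511), with log2 fold changes of 0.19 in both fits. In shMSLN replicate 1 alone against the shNC samples the log2 fold change was 0.15 (adjusted p = 0.308 by edgeR, again with the spread of the shNC samples only), a fit in which 1797 genes were called against 5032 with all samples.

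CDK4 was at 106, 94.3 and 96.4 CPM in shNC replicates 1, 2 and 3 and at 115, 104 and 104 CPM in shMSLN replicates 1, 2 and 3. The groups overlapped in CPM through shNC replicate 1. In the authors' TPM they did not overlap, at 113 to 124 TPM in shNC and 126 to 138 TPM in shMSLN samples. These TPM carry no TMM scaling, whose factors were 0.984 to 0.997 in shNC and 1.007 to 1.013 in shMSLN samples. The share of all genes without overlap in TPM was not counted, so this separation has no background beside it. The log2 fold change was 0.12 (SE 0.053, edgeR adjusted p = 0.0923), with a 95% interval from 0.0076 to 0.24. CDK4 passed the threshold without shNC replicate 1 (0.17, adjusted p = 0.00541) and with upper-quartile scaling (0.15, adjusted p = 0.0402). TSPAN31, a gene on the opposite strand, shares 1369 exon bases with CDK4, 43.2% of the annotated exon bases of CDK4. It was at 47.4 CPM in shNC and 51.9 CPM in shMSLN cells (log2 fold change 0.13, adjusted p = 0.0508 by edgeR), and without knowledge of strand in counting the reads of the pair cannot be told apart.

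CDK2 (NCBI Gene 1017), the partner of the E and A cyclins, lies on chromosome 12 from 55966769 to 55972784. Its values were 78.4, 69.7 and 72.1 CPM in shNC replicates 1, 2 and 3 and 77.9, 76.4 and 82.6 CPM in shMSLN replicates 1, 2 and 3. Again shNC replicate 1 lay among the shMSLN samples in CPM. In the authors' TPM the groups did not overlap, at 70.1 to 75.74 TPM in shNC and 77.05 to 83.6 TPM in shMSLN samples. As for CDK4, the TPM are without TMM scaling and without a count over all genes. Its log2 fold change was 0.11 (SE 0.052, edgeR adjusted p = 0.132, 95% interval -0.0055 to 0.22). Without shNC replicate 1 it was 0.15 and passed the threshold (adjusted p = 0.0128). On the opposite strand, the antisense gene AC025162.1 shares 565 exon bases with CDK2 (14.5% of its annotated exon bases) and PMEL shares 89 (2.29%). PMEL was at 3.146 CPM in shNC and 4.601 CPM in shMSLN cells (log2 fold change 0.55, adjusted p = 0.0211 by edgeR).

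Summed CDK4 and CDK6 were at 135, 129 and 126 TPM in shNC replicates 1, 2 and 3, and at 153, 142 and 143 TPM in shMSLN replicates 1, 2 and 3, with no overlap. CDK6 made up 10.0% ± 1.26 of this sum in shNC and 10.5% ± 0.800 in shMSLN cells (SD, n = 3 each), so that per length CDK4 was the main D cyclin kinase transcript in both groups. Per transcript of CDK4 and CDK6 there were 1.72, 1.75 and 1.77 D cyclin transcripts (TPM ratio) in shNC replicates 1, 2 and 3, and 1.17, 1.30 and 1.28 in shMSLN replicates 1, 2 and 3. A ratio within a sample does not depend on library scaling, and here the shMSLN mean was 0.715 times the shNC mean. No test was run on these sums and ratios.

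**Figure D2:**
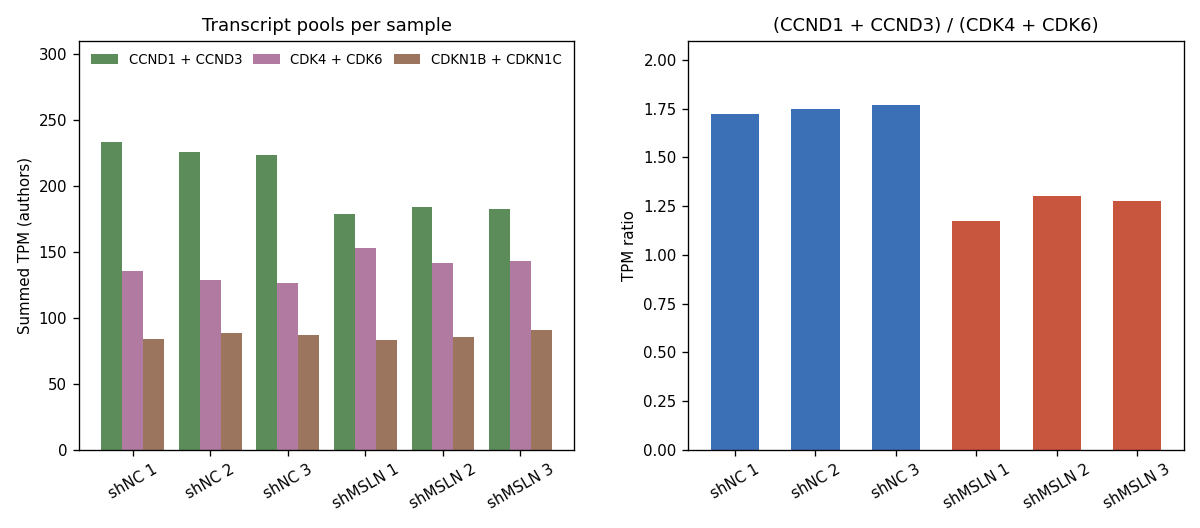
Left: summed TPM of CCND1 and CCND3, of CDK4 and CDK6, and of CDKN1B and CDKN1C in each sample. Right: ratio of the first sum to the second in each sample, from 1.72 to 1.77 in the 3 shNC samples and from 1.17 to 1.30 in the 3 shMSLN samples. Both axes start at 0, and bars are single samples without error.

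CDKN1B (NCBI Gene 1027) encodes the CIP/KIP inhibitor p27, whose amount is set largely by protein turnover, and lies on chromosome 12 from 12715058 to 12722371. It was at 88.8, 90.4 and 91.4 CPM in shNC replicates 1, 2 and 3 and at 87.6, 87.6 and 93.3 CPM in shMSLN replicates 1, 2 and 3. In log2 the fold change was -0.011 (SE 0.043, edgeR adjusted p = 0.867). Its 95% interval of the fold, from 0.931 to 1.06, was the narrowest of the 8 members apart from that of CCND1. The D cyclin sum per CDKN1B transcript was 2.77 ± 0.142 in shNC and 2.18 ± 0.0845 in shMSLN cells (TPM ratio, SD, n = 3 each), with no overlap between the samples. Summed with CDKN1C, it was at 84.2, 88.2 and 87.0 TPM in shNC replicates 1, 2 and 3 and at 83.2, 85.7 and 90.9 TPM in shMSLN replicates 1, 2 and 3, with overlap.

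CDKN1C (NCBI Gene 1028), the imprinted CIP/KIP inhibitor p57 on chromosome 11 (2883213 to 2885773), was the least abundant member. It had 59.0, 44.0 and 52.0 estimated reads in shNC replicates 1, 2 and 3 and 33, 46 and 44 reads in shMSLN replicates 1, 2 and 3. The groups overlapped in reads, and shMSLN replicate 1 was lowest. In the authors' TPM, which are not TMM-scaled, the groups did not overlap, at 3.81 to 4.68 TPM in shNC and 2.25 to 3.66 TPM in shMSLN samples. Here too the share of all genes without overlap in TPM was not counted. The log2 fold change was -0.33 with a wide 95% interval from -0.76 to 0.10 (adjusted p = 0.231 by edgeR), and a change of the size seen for CCND1 lay inside the interval and was not detectable at this depth. Without shMSLN replicate 1 it was -0.17.

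RB1 (NCBI Gene 5925), the substrate of these kinases and the repressor of E2F genes, lies on chromosome 13 from 48303726 to 48599436. It was at 57.2, 61.8 and 64.2 CPM in shNC replicates 1, 2 and 3 and at 57.1, 57.3 and 57.6 CPM in shMSLN replicates 1, 2 and 3. The groups overlapped through shNC replicate 1. Its log2 fold change was -0.092 (SE 0.050, edgeR adjusted p = 0.177, 95% interval -0.20 to 0.016). Without shNC replicate 1 it was -0.14 with an adjusted p of 0.0238.

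The order of the levels, compared per length in TPM, was the same in both groups. In shNC cells it ran from CCND1 at 213 ± 4.32 TPM over CDK4 at 117 ± 5.67 TPM, CDKN1B at 82.2 ± 2.44 TPM, CDK2 at 72.0 ± 3.22 TPM and RB1 at 29.4 ± 2.11 TPM to CCND3 at 14.7 ± 0.881 TPM, CDK6 at 13.0 ± 1.32 TPM and CDKN1C at 4.30 ± 0.444 TPM (SD, n = 3 each). CCND1 was above 96.3% of all listed genes in shNC cells, whereas CDKN1C was above 36.2%. The ranges of CCND3 and CDK6 overlapped in both groups, and those of CDKN1B and CDK2 overlapped in shMSLN cells. CCND1 was at 166 ± 2.06 TPM and CDK4 at 130 ± 6.59 TPM after the knockdown (SD, n = 3 each).

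**Figure D3:**
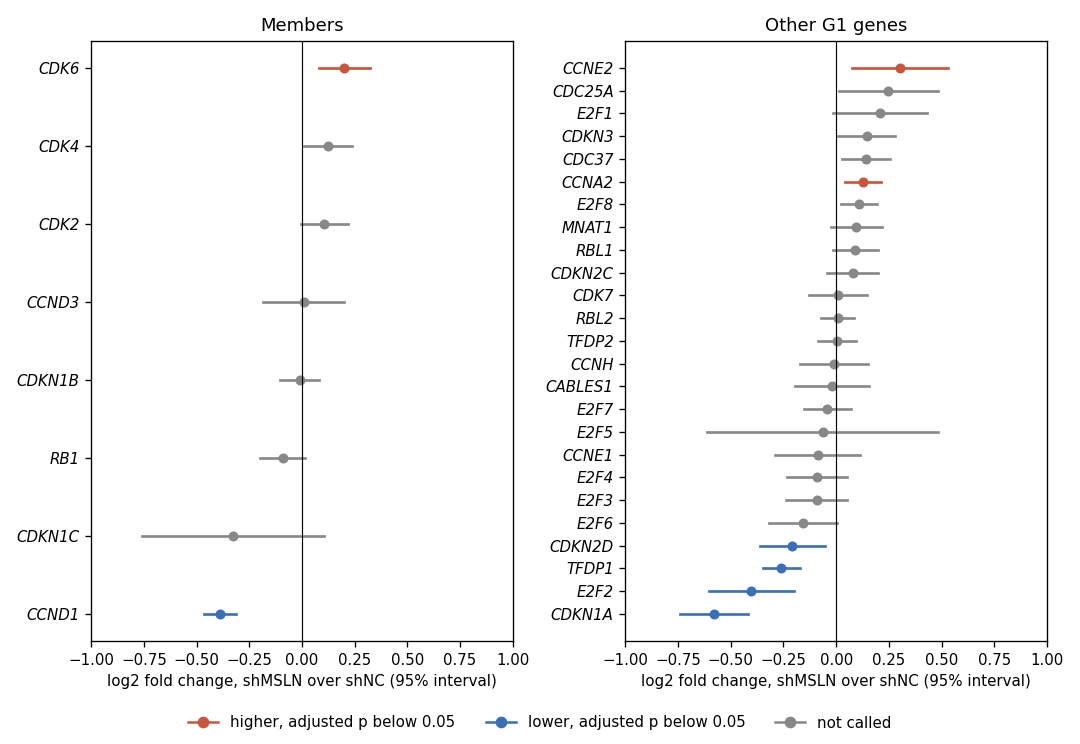
Log2 fold changes (horizontal axes, shMSLN over shNC) with 95% intervals from edgeR for the 8 members (left) and the 25 tested other G1 genes (right). Red marks genes called higher and blue genes called lower after the knockdown (threshold 0.05 on the adjusted p), grey no call. CCND1 at -0.39 and CDK6 at 0.20 are the called members.

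Other genes of the G1 pathway were read from a list of 26, which holds RB1 relatives, E2F and DP factors, E and A cyclins, the CDK-activating kinase and other inhibitors. Of the 25 tested, 2 were higher, 4 lower and 19 not called. The share called was 24.0%, against 34.6% of all tested genes (16.6% higher and 18.0% lower). Their median log2 fold change was 0.0022. The largest change was a fall of CDKN1A, the CIP/KIP inhibitor p21 that p53 induces. It was at 27.1, 29.4 and 28.4 CPM in shNC replicates 1, 2 and 3 and at 20.3, 19.7 and 16.7 CPM in shMSLN replicates 1, 2 and 3. The groups did not overlap, and the log2 fold change was -0.58 (SE 0.076, edgeR adjusted p = 3.57e-05). In this way CCND1 and CDKN1A fell in the same samples, and their TPM ratio was 7.28 ± 0.547 in shNC and 8.38 ± 0.883 in shMSLN cells (SD, n = 3 each) with overlap. CDKN2D, an INK4 inhibitor of CDK4 and CDK6, decreased by 0.21 in log2 (adjusted p = 0.0366 by edgeR), a call that was lost without any one sample other than shNC replicate 2. This call was also lost with upper-quartile scaling (adjusted p = 0.0677 by edgeR) and in DESeq2 (adjusted p = 0.132). CDKN2C, another INK4 inhibitor, was at 34.3 ± 1.75 CPM in shNC and 36.2 ± 0.341 CPM in the knockdown samples (SD, n = 3 each; adjusted p = 0.304). CDKN2A was listed at 0, 0 and 1 reads in shNC replicates 1, 2 and 3 and at 0 and 1.99 reads in shMSLN replicates 2 and 3, with no value in replicate 1. It had fewer than 3 reads in each of these libraries. Because of the missing value it was left out of the test.

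Further down the pathway, TFDP1, the DNA-binding partner of E2F factors, had a mean of 306 ± 16.7 CPM in shNC and 256 ± 2.89 CPM after the knockdown (SD, n = 3 each), a fall of log2 size -0.26 (adjusted p = 0.000216 by edgeR). E2F2, an activating E2F, fell by 0.40 (adjusted p = 0.00421). CCNE2, an E cyclin, rose by 0.30 (adjusted p = 0.0412) and CCNA2, the S phase cyclin, by 0.13 (adjusted p = 0.0232), while CCNE1 was not called at -0.089 (adjusted p = 0.496). The calls of CCNE2 and CCNA2 were not stable. The number of higher genes in this list was 7 without shNC replicate 1, 1 without shNC replicate 2 and 1 without shMSLN replicate 2, and CCNE2 and CCNA2 both missed the threshold without shNC replicate 3, shMSLN replicate 1 or shMSLN replicate 3. CCNA2 also missed it without shNC replicate 2 (0.11, adjusted p = 0.0543) and CCNE2 without shMSLN replicate 2 (0.29, adjusted p = 0.109). The call of CCNE2 was also lost in DESeq2 (adjusted p = 0.0946).

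Regulators of the turnover and transcription of D cyclins and CDK inhibitors were read from a list of 27. Of these, 6 were higher, 5 lower and 16 not called, with 40.7% called against 34.6% of all tested genes (16.6% higher and 18.0% lower) and a median log2 fold change of -0.0082. SKP2, the F-box protein that marks p27 for destruction, rose by 0.21 in log2 (SE 0.038, edgeR adjusted p = 0.000842) and had means of 131 ± 2.91 CPM in shNC and 151 ± 2.93 CPM in the knockdown (SD, n = 3 each). Its ligase partner SKP1 rose by 0.13 (adjusted p = 0.00956) and CKS2, a small CDK-binding protein, by 0.17 (adjusted p = 0.00858). CKS1B, the cofactor of SKP2 for p27, was not called at 0.072 (adjusted p = 0.251). FOXO1, a transcription factor that can induce CDKN1B, rose by 0.16 (adjusted p = 0.0190), SMAD3, the TGF-beta effector, fell by 0.14 (adjusted p = 0.0113), and DYRK1B, a kinase that promotes cyclin D1 turnover, fell by 0.40 (adjusted p = 0.0213). Calls were lost for SKP1 without shMSLN replicate 3, for SMAD3 without shMSLN replicate 2 or 3, for FOXO1 without shMSLN replicate 1 or 3 and for DYRK1B without shNC replicate 3 or shMSLN replicate 3, with adjusted p between 0.0545 and 0.102. The call of DYRK1B was also lost in DESeq2 (adjusted p = 0.0662). The number of lower genes in this list was 1 without shNC replicate 3 and 1 without shMSLN replicate 2, and without shMSLN replicate 3 it was 0 (4 at an unadjusted p below 0.05 in edgeR) with 2 higher genes.

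Of 30 E2F target genes, 7 were higher, 1 lower and 22 not called, with a median log2 fold change of 0.070. The share called was 26.7%, against 34.6% of all tested genes (16.6% higher and 18.0% lower). The log2 fold change was above 0 for 20 targets and below 0 for 10, beside 7328 and 7224 of all tested genes. CCNA2 belongs to this list as well as to the one before the regulators. MCM6, a subunit of the replicative helicase, had the largest log2 fold change of the list. It was at 58.4, 52.7 and 52.9 CPM in shNC replicates 1, 2 and 3 and at 94.8, 98.7 and 95.5 CPM in shMSLN replicates 1, 2 and 3, a log2 difference of 0.82 (SE 0.050, edgeR adjusted p = 1.87e-08). MCM2, of the same helicase, rose by 0.16 (adjusted p = 0.0132), a call that was lost without shNC replicate 3 or shMSLN replicate 1, whereas MCM3, MCM5 and MCM7 were not called at 0.11, 0.10 and 0.092. TOP2A rose by 0.21 (adjusted p = 0.000137), CDK1 by 0.21 (adjusted p = 0.000900) and TK1, thymidine kinase, by 0.23 (adjusted p = 0.00536). MKI67, which encodes the proliferation marker Ki-67, went from 691 ± 7.47 to 622 ± 6.17 CPM (SD, n = 3 each), a fall of log2 size -0.15 (adjusted p = 0.00192 by edgeR).

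The number of E2F target genes called depended on shNC replicate 1. That library was the highest of the 3 shNC samples for 25 of the 30 targets (83.3%) and for 17 of the 25 other G1 genes, but for 7 of the 27 regulators (25.9%), against 36.3% of all tested genes. Without it, 16 E2F targets were higher. Without shNC replicate 3 or without shMSLN replicate 1, 4 were higher, and without shNC replicate 2, 3 were lower. Among the members the same library was highest for CCND1, CCND3, CDK2, CDK4 and CDKN1C and lowest for CDK6, CDKN1B and RB1. CCND1 was called with and without it.

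**Figure D4:**
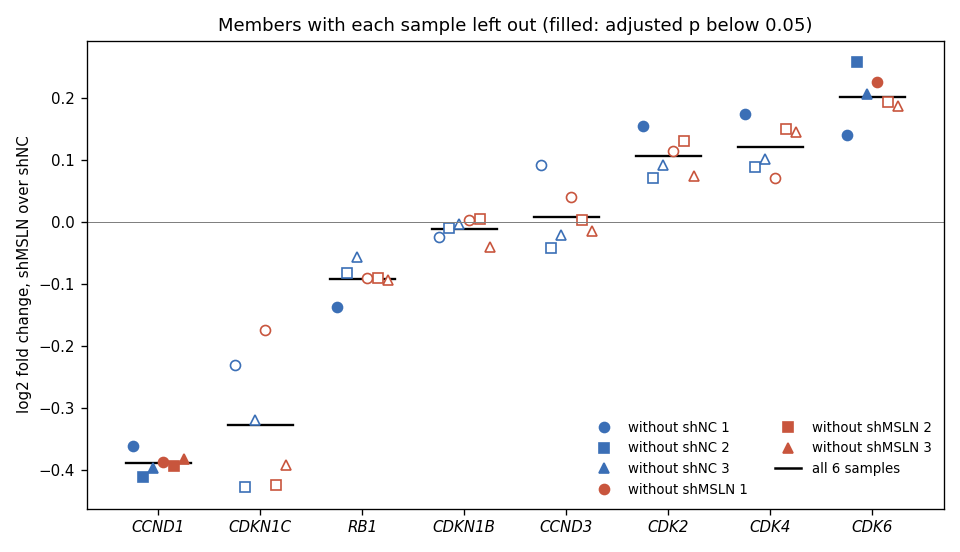
Log2 fold change (vertical axis) of each member with each of the 6 samples left out in turn, with the fit of all 6 samples as a black line. Filled symbols have an adjusted p below 0.05. CCND1 stays between -0.41 and -0.36 and is filled throughout, CDK6 is open without shMSLN replicate 2 or 3, and CDK2, CDK4 and RB1 are filled only without shNC replicate 1.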

How the data were processed

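RNA of HCC1806/HM3 cells was examined in 3 shNC and 3 shMSLN samples. Sample titles gave the groups and replicate numbers. The authors deposited 1 table with estimated counts, TPM and FPKM per gene and sample (genome build GRCh38.p13 per the submitters' processing notes; aligner, quantifier, annotation and use of strand are not given in the sources used here). The deposited estimated counts are not scaled. Levels between genes and sums were read from the authors' TPM, which correct for gene length and were used without TMM scaling. The FPKM that the authors deposited were not used. The shMSLN columns hold missing marks, and the 16573 genes with 6 values were kept (1287 were left out).

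After rounding, the counts entered edgeR 4.0.16 under R 4.3.3 (filterByExpr, TMM scaling, glmQLFit, glmQLFTest, no covariate) with Benjamini-Hochberg adjustment over 14552 genes. Standard errors are the log2 fold change divided by the square root of F. Intervals cover 95%. The fit was tested on simulated data. Alternatives were RLE and upper-quartile scaling, filters of at least 1 count over all samples or 10 counts in every sample, DESeq2 1.42.0, limma-voom (limma 3.58.1), robust estimation, a replicate block, missing values as 0, and each sample left out. shMSLN replicate 1 alone was added after the data were seen. The members and the lists were chosen with earlier results of these data known. All members, MSLN, the markers and the 6 genes with the smallest adjusted p of each list are named. CCNE1, CDKN2A, CDKN2C, CKS1B, MCM3, MCM5, MCM7, LTO1, PMEL, AC025162.1 and TSPAN31 were added after their values were seen. Positions are from GENCODE release 29 (GRCh38).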

Additional observations from a re-analysis of the deposited data

How the results depend on the processing

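CCND1 and CDKN1A kept their direction and their call in the 6 fits with a sample left out and in the 9 other settings (log2 fold change of CCND1 between -0.41 and -0.36). The number of called genes was 5032, between 3695 and 5399 with a sample left out, and 1797 for shMSLN replicate 1 alone, where 0 members were higher by edgeR (1 at an unadjusted p below 0.05, which was CDK4 at 0.22, adjusted p = 0.0996, with CDK6 at 0.15, adjusted p = 0.308). With upper-quartile scaling 2 members and 5 other G1 genes were higher and 2 turnover regulators lower, and the log2 fold change of CDKN1B turned from -0.011 to 0.018, where this scaling moved the median of all genes from 0.0019 to 0.0311. The strict filter and robust estimation gave 4 higher other G1 genes each, and DESeq2 gave 1 with 2 turnover regulators lower. The summed D cyclin ratio of shMSLN to shNC was 0.771 in CPM, against 0.800 in TPM.

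With each sample left out, 0 to 3 members were higher (where 0, 2 were higher at an unadjusted p below 0.05 in edgeR) and 1 to 2 lower, 0 to 7 other G1 genes higher, 2 to 6 turnover regulators higher and 0 to 5 lower, and 4 to 16 E2F targets higher and 1 to 3 lower. In log2 fold change, CCND3 ranged from -0.043 to 0.092 and CDKN1B from -0.040 to 0.0051, and CCND3 was -0.054 for shMSLN replicate 1 alone. The cause of these shifts was not tested.

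With a replicate block, 2 members and 5 other G1 genes were higher, with CDK4 at 0.12 (adjusted p = 0.0156 by edgeR). The correlations of same-numbered deviations were 0.218, 0.0847 and 0.0954, and every sample correlated best with its own number, a hint from the data only. CDKN1C, the member with the fewest reads, is limited by depth.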
